A study of Drosophila mojavensis with 95 samples.

Results

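After 9 h of desiccation, whole females of the desert fruit fly Drosophila mojavensis from Baja California were compared with females from Sonora. The comparison rests on 31 of the 95 arrays of the study: every array labelled 9 h, 15 from Baja California and 16 from Sonora. All were wild-type virgin females, measured as total RNA from whole bodies, and all had the same 9 h of desiccation. The Baja California flies came from Punta Prieta (8 arrays, 4 on agria and 4 on organ pipe media) and San Quintin (7 arrays, 3 on agria and 4 on organ pipe). The Sonoran populations were those of Organ Pipe National Monument and Punta Onah, with 4 arrays on each medium in either population. The media were prepared from one of those cacti. Each of the 8 combinations of population and diet had the same weight, so a regional difference is the mean of 4 Baja California group means minus the mean of 4 Sonoran group means. The study also holds 31 arrays of flies at 0 h and 33 of flies at 18 h, which were used for comparison.

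The labels give no age, no number of flies per array and no number of breeding lines per population. They call the arrays of a group replicates without saying whether these came from separate cultures, so the p-values measure the spread between arrays, which may be technical. A region is represented by 2 populations, and a p-value over arrays does not measure the spread between populations of a region.

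D. mojavensis breeds in rotting cactus, in Baja California chiefly in agria and on the mainland of Sonora chiefly in organ pipe cactus. Its habitat is hot and dry, and adults lose water mainly through the cuticle, which is waterproofed by hydrocarbons, and through respiration and excretion. During desiccation a fruit fly draws on stored water and on glycogen and lipid reserves, and changes in transcript abundance over hours are a common readout of that state. In whole bodies, a lower level can come from fewer cells of a type or from less RNA per cell, and these cannot be told apart.

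Levels are log2 intensities per transcript, so a difference of 1 is 2-fold. Rows carry FlyBase transcript identifiers. None of the 14528 identifiers (0) occurs in the reference gene table used here, which lists 15130 genes, so no transcript has a gene name or a known role below, and neither the female markers nor the pathway lists could be checked. Over transcripts, the 9 h arrays correlated at a median r of 0.991 within a group, 0.990 within a region and 0.986 between regions, and 0 pairs held identical values. Array medians lay between 10.21 and 10.4 and array standard deviations between 1.83 and 2.04.

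The labelled region was checked with the 200 transcripts that differed most between populations in the 0 h and 18 h arrays. By correlation with population means of those other arrays, 31 of 31 arrays at 9 h lay nearest to a population of their own region, and 26 lay nearest to their own population. The other 5 were Baja California arrays nearest to the other Baja California population: Punta Prieta agria array 4, San Quintin agria array 3 and San Quintin organ pipe arrays 1, 2 and 4. Their correlation with their own population was 0.582 to 0.800, against 0.668 to 0.889 with the other one. The counts of calls and the estimates of named transcripts were recomputed without them, an alternative chosen after the data were seen that leaves San Quintin organ pipe with 1 array, assumed to vary like the other groups. Among the 0 h arrays, numbers 3 and 4 of Punta Prieta on organ pipe went against the rest of their population: FBtr0162063 stood at 8.603 and 7.805 there, against 12.16 to 12.53 in the other 6 Punta Prieta arrays at 0 h. Both arrays entered the Punta Prieta mean used in the check above.

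At 9 h, 2214 of 14528 transcripts (15.2%) differed between the regions at a Benjamini-Hochberg adjusted p under 0.05 in limma's moderated test, 1306 of them higher in Baja California (8.99%) and 908 lower (6.25%). Most of these differences were small. Over all transcripts the median size of the regional difference was 0.0758 log2 units, with a median standard error of 0.0721. At least 1.5-fold differences were called for 258 transcripts (1.78%), 163 higher and 95 lower, and at least 2-fold differences for 79 (0.544%), 55 higher and 24 lower. The share of called transcripts that were higher in Baja California was 59.0%, and it was 48.6% after each array was centred on its own median, so the balance of directions among all calls depends on the scaling. Without the 5 arrays nearest to the other population, 1329 transcripts were called. With the population means as units, 2 against 2, 423 were called. Without the arrays numbered replicate 1, 1417 were called.

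**Figure D1:**
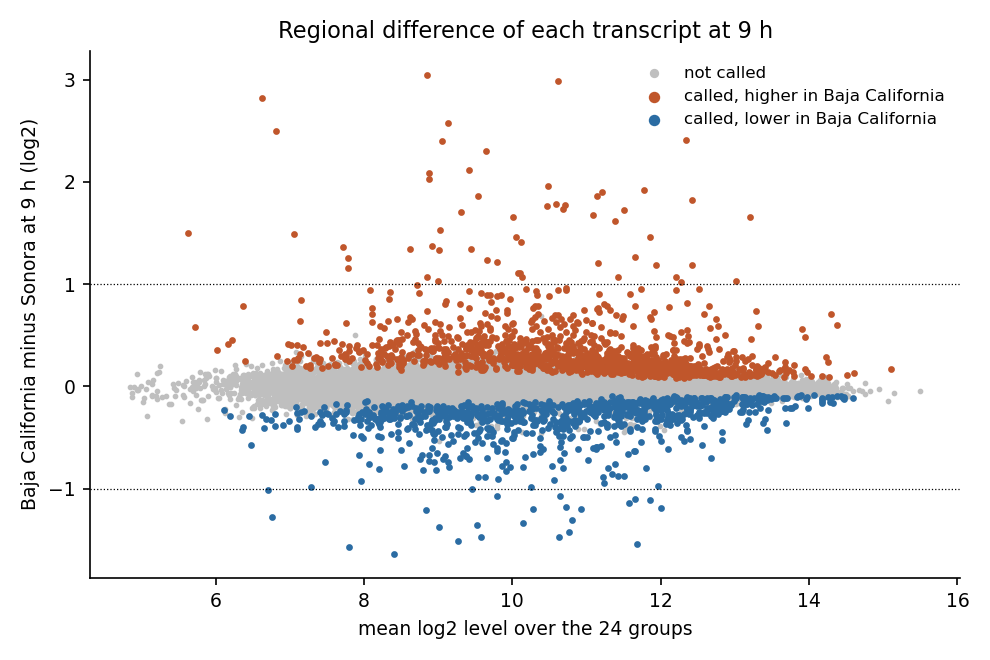
The regional difference at 9 h (Baja California minus Sonora, log2) against the mean log2 level over the 24 groups of the study, 1 point per transcript. Called transcripts are red where higher in Baja California and blue where lower, others grey, and dotted lines mark 2-fold. The highest point lies at 3.05 and the lowest at -1.64, and the 55 called points above the upper line outnumber the 24 below the lower line.

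The called share varied with the level of the transcript, as the plot of difference against level shows. With the transcripts in 5 equal classes by mean level, 6.23% of the dimmest class and 11.8% of the next were called, and the other classes had 20.6%, 19.7% and 17.9% in order of rising level. The share of calls that were higher in Baja California was 48.1% and 49.7% in the 2 dimmest classes and 61.9%, 66.8% and 56.9% in the others. How far a dim transcript lay above background is unknown, since no detection calls were used.

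The largest difference with all 4 Baja California group means beyond all 4 Sonoran ones was that of FBtr0162063. In the Punta Prieta flies on agria it stood at 12.23, 12.33, 12.26 and 11.89, and on organ pipe at 11.59, 12.21, 11.54 and 11.65. In the San Quintin flies it stood at 10.85, 10.84 and 12.16 on agria and at 11.36, 11.81, 10.84 and 11.72 on organ pipe. The 16 Sonoran arrays ran from 7.67 to 10.11 with a median of 8.53, so that all 15 Baja California arrays lay above all of them. The 2 highest Sonoran arrays, at 10.08 and 10.11, were both Organ Pipe National Monument flies on organ pipe, whose other 2 arrays stood at 8.08 and 7.91. The regional difference was 3.05 ± 0.244 (SE), or 8.26-fold, with a limma adjusted p of 5.49e-17. Without the 5 arrays it was 2.81, and the differences of the next 3 transcripts named were 2.80 for FBtr0174986, -1.75 for FBtr0169038 and -1.67 for FBtr0168456.

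FBtr0174986 was next, with 11.40 to 13.56 (median 12.90) in Baja California and 8.91 to 11.43 (median 9.51) in Sonora. The ranges touch at 1 array on each side, the first San Quintin agria array at 11.40 and the Organ Pipe National Monument array numbered 4 on organ pipe at 11.43. The difference was 2.98 ± 0.244 (SE), or 7.90-fold, with a limma adjusted p of 1.17e-16. The same 2 Organ Pipe National Monument arrays that were high for FBtr0162063 were high for FBtr0174986, at 10.76 and 11.43 against 9.01 and 9.13 in their group.

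Both transcripts with the largest deficits in Baja California separated the regions in every array. FBtr0169038 stood at 7.02 to 8.11 (median 7.66) in Baja California and at 8.37 to 9.85 (median 9.18) in Sonora, a difference of -1.64 ± 0.129 (SE) with a limma adjusted p of 3.55e-17. FBtr0168456 stood at 6.42 to 7.60 (median 7.02) and at 8.001 to 9.86 (median 8.53), a difference of -1.57 ± 0.147 (SE) with a limma adjusted p of 3.51e-14. The 4 Baja California group means were close together, between 7.44 and 7.77 for FBtr0169038 and between 7.02 and 7.12 for FBtr0168456. FBtr0162063, FBtr0174986 and FBtr0169038 were called under all 55 alternatives, and FBtr0168456 under the 54 that tested it, since it is among the dimmest transcripts that 1 alternative left out. With population means as units, the largest adjusted p among the 4 was 0.00457.

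**Figure D2:**
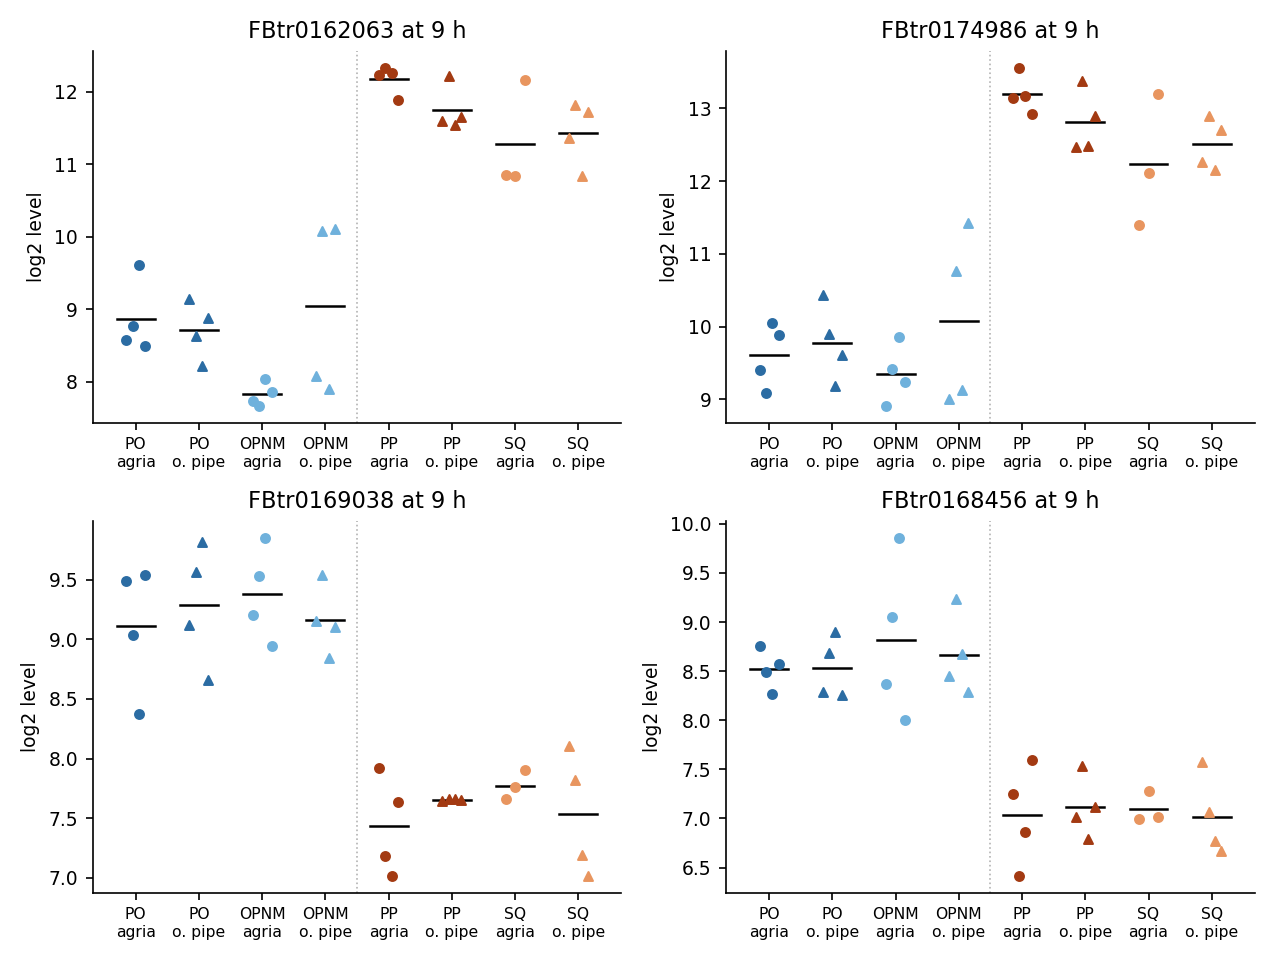
Log2 level of the 4 transcripts named for the regional difference, 1 point per 9 h array, circles for agria and triangles for organ pipe media, with the group mean as a bar. Sonoran groups stand left of the dotted line and Baja California groups right of it. FBtr0162063 and FBtr0174986 are higher in Baja California and FBtr0169038 and FBtr0168456 lower, and for FBtr0174986 alone an array of one region reaches the range of the other.

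Complete separation was rare across the table. All 15 Baja California arrays lay beyond all 16 Sonoran arrays for 85 transcripts (0.585%), 58 of them above (0.399%) and 27 below (0.186%). Of the 79 transcripts called at least 2-fold apart, 40 were separated in this way (25 higher and 15 lower) and 76 had all 4 group means of one region beyond those of the other. Of the 258 called at least 1.5-fold apart, 68 were separated by array and 233 by group mean. Separation of group means held for 1952 transcripts (13.4%) in the whole table.

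Each Baja California population was also set against each Sonoran one, over both diets. These comparisons share arrays, so their values are given side by side. Punta Prieta differed from Punta Onah in 1106 transcripts (7.61%) and from Organ Pipe National Monument in 1975 (13.6%). San Quintin differed from Punta Onah in 773 (5.32%) and from Organ Pipe National Monument in 1106 (7.61%). Calls in the same direction in all 4 pairs were made for 352 transcripts (2.42%), 244 higher and 108 lower in Baja California, and for 141 without the 5 arrays nearest to the other population. Without the arrays numbered replicate 1 there were 179.

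Within regions, the Sonoran populations differed in more transcripts than the Baja California ones at 9 h, though these counts were not tested against each other. The Sonoran pair differed in 349 transcripts (2.4%). Of these, 146 (1%) were higher in Organ Pipe National Monument and 203 (1.4%) higher in Punta Onah, and 85 (0.585%) differed by at least 1.5-fold. The Baja California pair differed in 3 (0.0206%), all higher in San Quintin, while 421 had an unadjusted p under 0.05. The count of 3 called transcripts became 5 after median centring, with 4 higher and 1 lower. With limma's array weights, which down-weight arrays that scatter, 1310 transcripts were called. Some groups then rested mainly on 1 array. Punta Prieta organ pipe array 4 at 9 h had a weight of 8.66, against 0.613 to 0.799 in the rest of its group. Organ Pipe National Monument agria array 4 had 8.06, against 0.212 to 0.863. The median half-width of the 95% interval was 0.207 log2 units for San Quintin minus Punta Prieta. That interval is not adjusted for the number of transcripts, so larger differences could also go uncalled. FBtr0162063 differed by -0.61 and FBtr0174986 by -0.64 between these populations, and neither was called (limma adjusted p = 0.998 for both).

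The 2 transcripts with the largest of these differences have consecutive identifiers, and the files do not say whether they belong to 1 gene. FBtr0171629 stood at 9.34, 9.56 and 8.90 on agria and 9.13, 9.84, 9.13 and 8.95 on organ pipe in San Quintin, against 7.49 to 8.36 over the 8 Punta Prieta arrays. The difference was 1.31 ± 0.165 (SE) with a limma adjusted p of 2.52e-07. The Sonoran arrays, from 7.75 to 8.79, lay below every San Quintin array. FBtr0171630 followed the same pattern, with 8.76 to 9.63 in San Quintin and 7.58 to 8.15 in Punta Prieta, a difference of 1.19 ± 0.172 (SE) and a limma adjusted p of 9.25e-06. Without the 5 arrays FBtr0171630 differed by 1.10 (adjusted p = 0.0905). On organ pipe alone neither was called, with differences of 1.23 and 1.08 and an adjusted p of 0.147 for both. Both were chosen for their 9 h difference. At 0 h, which did not enter that choice, San Quintin exceeded Punta Prieta by 1.15 for FBtr0171629 and 0.97 for FBtr0171630. At 18 h the San Quintin organ pipe arrays were lower than those on agria: FBtr0171629 stood at 7.57, 8.23 and 7.91 there, against 8.94 to 9.60 in the San Quintin agria arrays at 18 h. The third called transcript differed by less than 1.5-fold.

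Between the Sonoran populations the largest differences were deficits in Organ Pipe National Monument. FBtr0172428 stood at 13.46 to 13.94 on agria and 13.67 to 14.17 on organ pipe in Punta Onah, whereas the Organ Pipe National Monument arrays stood at 10.42 to 12.37. The difference was -2.52 ± 0.249 (SE), with a limma adjusted p of 3.25e-12. The Baja California arrays, at 10.4 to 12.24, lay below every Punta Onah array. The regional difference for FBtr0172428 was -1.54, and each Baja California population was called against Punta Onah (-2.64 and -2.95) and neither against Organ Pipe National Monument (-0.12 and -0.43, adjusted p = 0.801 and 0.389). FBtr0171740 was likewise high in Punta Onah (10.74 to 11.84) and low in Organ Pipe National Monument (8.64 to 9.51), a difference of -2.25 ± 0.237 (SE) with a limma adjusted p of 3.01e-11.

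The opposite pattern was seen for FBtr0173075, at 8.94 to 10.2 in Punta Onah and 10.62 to 11.49 in Organ Pipe National Monument, a difference of 1.37 ± 0.178 (SE) with a limma adjusted p of 2.95e-08. Its Baja California arrays, at 9.23 to 10.21, were at the Punta Onah level. FBtr0172076 stood at 10.99 to 12.47 in Organ Pipe National Monument and 9.75 to 10.68 in Punta Onah, a difference of 1.26 ± 0.239 (SE) with a limma adjusted p of 0.000268. On organ pipe alone this last call was lost, at an adjusted p of 0.22.

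The regional difference was not shown to depend on the cactus in the medium. In the interaction of region with diet at 9 h, 0 transcripts (0%) were called by limma. The smallest adjusted p was 0.433, and 699 transcripts had an unadjusted p under 0.05. The median half-width of the 95% interval of that interaction was 0.287 log2 units, wider than most regional differences. With array weights, under which some groups rested mainly on 1 array, 2269 transcripts were called. The regional difference of FBtr0162063 was 3.39 on agria and 2.71 on organ pipe, that of FBtr0174986 was 3.24 and 2.73, and that of FBtr0169038 was -1.64 and -1.63. The gap between diets for FBtr0162063, 0.68 ± 0.488 (SE), was not called (limma adjusted p = 0.658).

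Most of the larger regional differences were already present before desiccation. Of the 258 transcripts called at least 1.5-fold apart at 9 h, 218 were called the same way at 0 h. The same held for 202 at 18 h and for 167 at both times. In the tests of the difference against another time, 13 of the 258 were called against 0 h and 70 against 18 h. The shares over all transcripts were 0.234% and 1.83%. Neither test called 183 of the 258. The 9 h arrays entered both the choice and these tests. Over all transcripts, 2032 were called between regions at 0 h (14%) and 7029 at 18 h (48.4%). The regional calls were also compared between fits that share no array. The 31 arrays at 9 h and the 64 arrays at the other times were fitted separately, giving 2557 regional calls (17.6%) at 9 h and 3154 (21.7%) at the other times. The same direction was called in both for 1712 transcripts, which is 67.0% of the 9 h list and 54.3% of the other list, and opposite directions for 4. Among the 259 at least 1.5-fold calls of the 9 h arrays alone, 241 (93.1%) were called the same way at the other times.

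The regional difference at 9 h was called different from that at 0 h for 34 transcripts (0.234%), with 13 differences more positive at 9 h (0.0895%), 21 more negative (0.145%) and 15 changing by at least 1.5-fold (0.103%). That count was 1 without the 5 arrays nearest to the other population, 43 without Punta Prieta organ pipe arrays 3 and 4 at 0 h, 4 with population as a random block and 0 without the arrays numbered replicate 2. Single 9 h arrays left out gave 25 to 53, with the lowest count without the first Punta Onah agria array and the highest without the third San Quintin organ pipe array. The changes behind the test were themselves widespread: from 0 to 9 h, 3247 transcripts (22.3%) changed in Baja California and 8755 (60.3%) in Sonora. By population the counts were 6217 for Organ Pipe National Monument (42.8%), 4555 for San Quintin (31.4%), 3401 for Punta Onah (23.4%) and 864 for Punta Prieta (5.95%). The Baja California count was 2011 without the 2 doubted 0 h arrays.

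The largest gain since 0 h was that of FBtr0174986. Its regional difference was 1.36 at 0 h and 2.98 at 9 h, an increase of 1.62 ± 0.345 (SE) with a limma adjusted p of 0.0138. Population means moved in different ways: San Quintin rose from 10.90 to 12.37, Punta Onah fell from 11.45 to 9.70, and Punta Prieta (12.89 and 13.01) and Organ Pipe National Monument (9.62 and 9.72) were not called. The Punta Prieta mean at 0 h combines 13.59 ± 0.112 (SD) on agria and 12.18 ± 1.6 (SD) on organ pipe, which holds the 2 doubted arrays. Without those arrays the increase in the regional difference was 1.28 (limma adjusted p = 0.0473). FBtr0161522 gained 1.02 ± 0.206 (SE), with a limma adjusted p of 0.0105. It stood at 10.25 to 11.64 in Baja California and 8.64 to 9.91 in Sonora at 9 h, with no overlap, and its regional difference was 0.64 at both 0 h and 18 h and 1.65 at 9 h. San Quintin rose by 1.02 from 0 to 9 h for FBtr0161522, and the other populations were not called.

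Among the differences that turned more negative, FBtr0174264 moved by -1.02 ± 0.192 (SE), with a limma adjusted p of 0.00816. Punta Onah rose from 8.85 to 9.88, and no other population was called. At 9 h FBtr0174264 stood at 7.79 to 9.91 in Baja California and 8.93 to 10.56 in Sonora. The 2 highest Baja California arrays, at 9.91 and 9.099, were San Quintin organ pipe arrays 3 and 4. FBtr0165353 differed between regions at 0 h (0.77) and not at 9 h (0.027, adjusted p = 0.911), a change of -0.74 ± 0.145 (SE) with a limma adjusted p of 0.00919. It changed by -1.1 in Baja California and by -0.36 in Sonora, both called, and its 9 h arrays ran from 7.98 to 8.46 and from 7.85 to 8.67. Without the 5 arrays none of these 4 changes was called, with values of 1.44 for FBtr0174986, 0.91 for FBtr0161522, -0.71 for FBtr0174264 and -0.75 for FBtr0165353 and adjusted p from 0.0678 to 0.225.

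These 4 calls also depended on single populations and diets. Without Punta Onah the change of FBtr0174986 was 0.69 (adjusted p = 0.436), that of FBtr0161522 was 0.77 (0.151 as adjusted p) and that of FBtr0174264 was -0.64 (0.193 as adjusted p). Without San Quintin the change of FBtr0174986 was 0.95 (adjusted p = 0.144), that of FBtr0161522 was 0.74 (0.0888 as adjusted p) and that of FBtr0165353 was -0.51 (0.0548 as adjusted p). Without Organ Pipe National Monument FBtr0165353 changed by -0.58 (adjusted p = 0.413). On agria alone the change of FBtr0174986 was 0.97 (adjusted p = 0.125), and the calls of FBtr0161522 and FBtr0174264 were lost too. On organ pipe alone none of the 4 was called, with changes of 2.27, 1.08, -1.14 and -0.501 in the order above. With population as a random block the calls of FBtr0174986, FBtr0161522 and FBtr0174264 were lost, at adjusted p from 0.0512 to 0.101.

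More transcripts separated 9 h from 18 h. The regional difference at 9 h was called different from that at 18 h for 266 transcripts (1.83%), 187 of them more positive at 9 h (1.29%) and 79 more negative (0.544%). Changes of at least 1.5-fold were called for 79 (0.544%) and of at least 2-fold for 34 (0.234%), 32 more positive and 2 more negative. After quantile normalization of the deposited values the share that was more positive was 57.1% in place of 70.3%. The count was 135 without the 5 arrays, 532 without the 2 arrays at the ends of the shared axis described below, 92 without the arrays numbered replicate 1 and 150 with population as a random block. By population left out it ran from 74 without Punta Onah and 105 without San Quintin to 947 without Organ Pipe National Monument and 1552 without Punta Prieta.

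The 187 transcripts with a more positive difference at 9 h had a median regional difference of 0.261 at 0 h, 0.339 at 9 h and -0.143 at 18 h. Against medians of -0.042 in Baja California and 0.00865 in Sonora over all transcripts, they changed from 9 to 18 h by a median of -0.443 in Baja California and 0.057 in Sonora. A more negative change in Baja California than in Sonora follows from how the 187 were chosen. These medians and the counts below are therefore a description. Of the 187, 90 fell in Baja California with no call in Sonora, 34 fell in both regions, 11 fell in Baja California and rose in Sonora, 40 rose in Sonora with no call in Baja California and 12 rose in both. Over all transcripts, 9.35% fell and 8.42% rose in Baja California from 9 to 18 h, and 17.3% fell and 7.54% rose in Sonora. The 79 with a more negative difference at 9 h had medians of -0.113, -0.134 and 0.208 at the 3 times. Of these, 32 rose in Baja California with no call in Sonora and 30 fell in Sonora with no call in Baja California. The choice of the 79 likewise fixes a more positive change in Baja California than in Sonora.

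The transcripts called at least 2-fold apart at 9 h fell into groups with different courses. The 55 that were higher in Baja California had a median difference of 1.21 at 0 h, 1.53 at 9 h and 0.625 at 18 h, against medians near 0 over all transcripts (-0.00276, 0.000533 and -0.00544). All 55 were called the same way at 0 h and 32 at 18 h. Of all 14528 transcripts, 1867 were called at 0 h in the direction of their 9 h difference and 6091 at 18 h. For 28 of the 55 the difference at 9 h was called different from 18 h, and their median went from 1.05 to 1.64 and then to -0.00247. The other 27 had medians of 1.40, 1.49 and 1.36. The 24 that were lower in Baja California had medians of -0.907, -1.24 and -1.26, with 23 called the same way at 0 h and 24 at 18 h, and 2 of the 24 were called different from 18 h. The 9 h values helped to choose these transcripts, so the courses are a description.

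**Figure D3:**
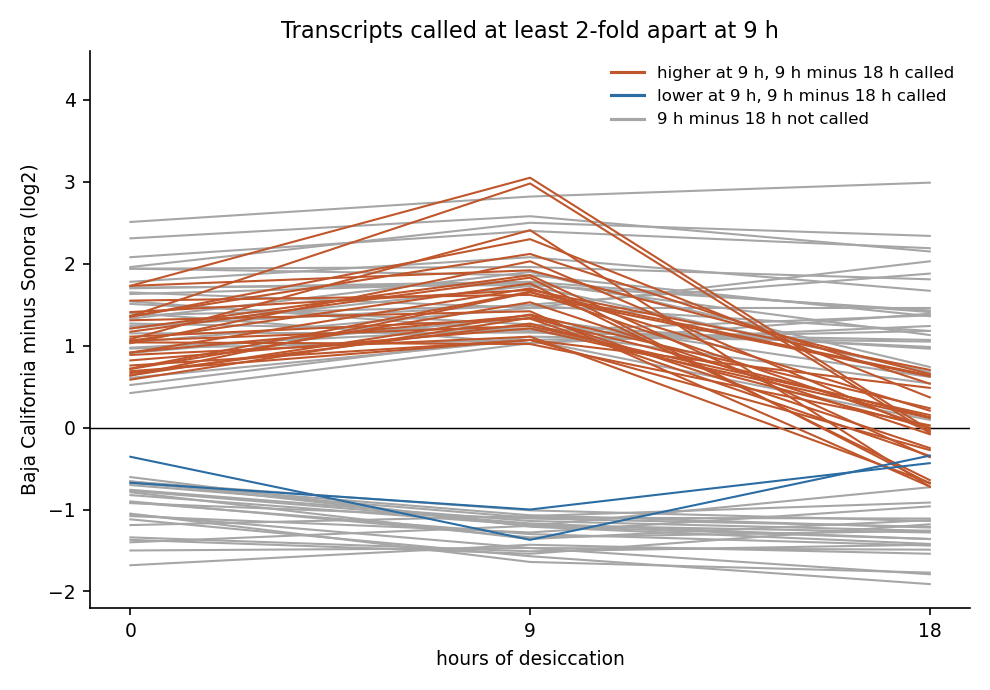
Regional difference (Baja California minus Sonora, log2) at 0, 9 and 18 h of desiccation for the 79 transcripts called at least 2-fold apart at 9 h, 1 line per transcript. Red (28) and blue (2) lines mark those whose difference at 9 h was called different from 18 h, grey lines the others. The red lines end between -0.723 and 0.704 at 18 h, and most grey lines stay near their 9 h value.

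These 28 transcripts were chosen with the same 9 h and 18 h arrays. A fall in Baja California relative to Sonora therefore follows from the choice. As a description, the fall from 9 to 18 h was seen in both Baja California populations. It was called in 21 of 28 in Punta Prieta (median -1.73) and in 20 in San Quintin (median -1.29), against 9 in Punta Onah (median -0.000825) and 7 in Organ Pipe National Monument (median -0.0471). Over all transcripts 6.99%, 6.56%, 13.4% and 5.61% fell in these populations in the same order. The preceding change from 0 to 9 h differed between the Baja California populations in its counts: 14 rose and 7 fell in San Quintin, and 3 rose and 8 fell in Punta Prieta. In Sonora, 6 rose and 13 fell in Punta Onah, and 4 rose and 7 fell in Organ Pipe National Monument. The shares of all transcripts that rose were 16.6% for Organ Pipe National Monument, 14.6% for San Quintin, 10.8% for Punta Onah and 4.84% for Punta Prieta. Falls from 0 to 9 h were unevenly spread over all 14528 transcripts. Punta Prieta had 161 of them, whereas the Punta Onah count was 1837. San Quintin had 2437 falls and Organ Pipe National Monument had 3799.

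FBtr0166500 had the largest change against 18 h. At 9 h it stood at 9.69 to 13.79 (median 12.52) in Baja California and at 8.74 to 11.07 (median 9.56) in Sonora, with wide scatter in Baja California. The Punta Prieta organ pipe arrays stood at 9.69, 9.75, 10.78 and 12.99, and the San Quintin organ pipe arrays at 13.20, 13.79, 9.71 and 12.52. Its level had been high at 0 h, with population means of 14.49 in Punta Onah, 13.89 in Punta Prieta, 14.35 in San Quintin and 11.60 in Organ Pipe National Monument. From 0 to 9 h the mean over diets fell in each population, with a change of -4.88 for Punta Onah and smaller ones for the others. The difference between diets in this change was not tested. Organ Pipe National Monument flies on agria stood at 9.53 ± 0.669 (SD, n = 4) at 0 h and 9.88 ± 0.942 at 9 h, while those on organ pipe stood at 13.67 ± 0.889 and 8.92 ± 0.122. Punta Prieta flies on agria stood at 13.64 ± 0.552 and 13.09 ± 0.798, and those on organ pipe at 14.14 ± 0.335 and 10.80 ± 1.55. From 9 to 18 h it rose by 3.59 in Sonora, while the Baja California change of 0.46 was not called (adjusted p = 0.338). The regional difference was 2.41 at 9 h and -0.72 at 18 h, a difference of 3.13 ± 0.419 (SE) with a limma adjusted p of 1.44e-07.

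FBtr0162063 reached nearly the same difference by another course. At 0 h only Punta Prieta arrays were high, at 12.16 to 12.53 apart from the 2 doubted arrays, which stood at 8.603 and 7.805. Those 2 were doubted on this same transcript, so the narrow range follows from setting them aside. San Quintin stood at 7.26 to 8.74, in the range of the Sonoran arrays (7.24 to 9.60). San Quintin rose by 3.47 to 9 h (adjusted p = 2.81e-12), so that at 9 h both Baja California populations were high. At 18 h every group was low: the Baja California arrays stood at 6.43 to 9.10 and the Sonoran arrays at 6.996 to 8.01, and the regional difference was -0.031 (adjusted p = 0.923). The regional difference at 9 h exceeded that at 18 h by 3.08 ± 0.341 (SE), with a limma adjusted p of 1.31e-09. Against 0 h it had grown by 1.32 ± 0.345 (SE), which was not called (adjusted p = 0.0731).

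FBtr0171495 and FBtr0174264 moved the other way. FBtr0171495 fell in both regions from 0 to 9 h, with changes of -1.84 in Baja California and -1.03 in Sonora. It then fell further in Sonora (-1.845 to 18 h), while Baja California changed by 0.12 (adjusted p = 0.755). At 9 h it stood at 9.42 to 10.75 in Baja California and 10.03 to 11.78 in Sonora. Its regional difference was -0.91 at 9 h and 1.05 at 18 h, a difference of -1.96 ± 0.290 (SE) with a limma adjusted p of 1.48e-06, and without Punta Onah the difference was -1.48 (adjusted p = 0.0558). FBtr0174264 had a difference of -1.37 at 9 h and -0.34 at 18 h, -1.03 ± 0.189 (SE) apart with a limma adjusted p of 0.000181. From 9 to 18 h FBtr0174264 fell by 1.28 in Punta Onah and was called in no other population, and without Punta Onah the difference was -0.461 (adjusted p = 0.657).

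**Figure D4:**
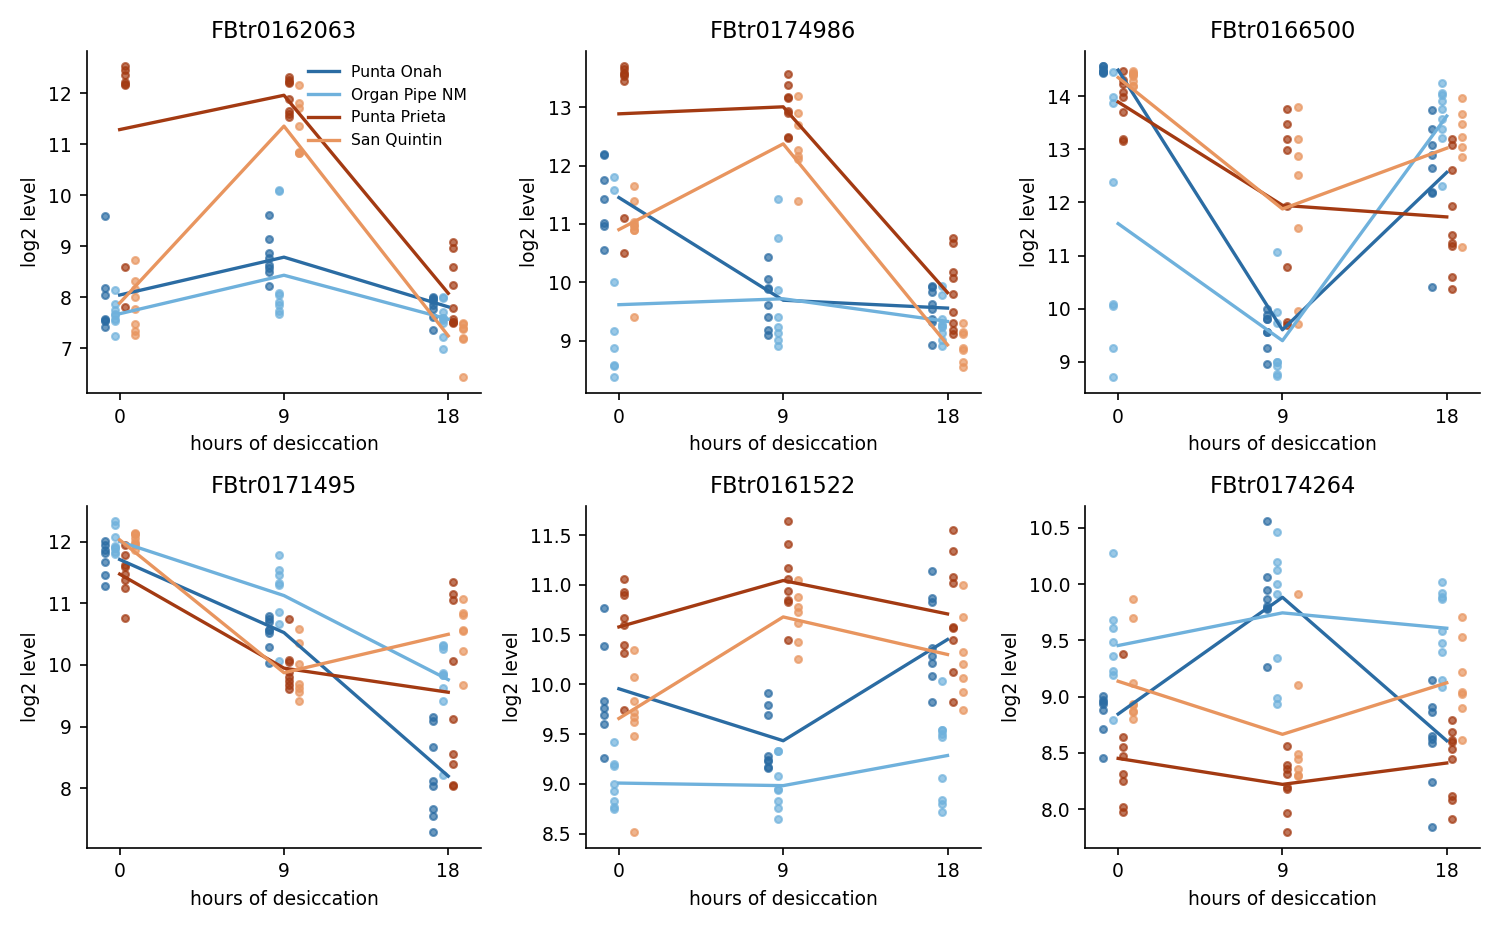
Log2 level of 6 named transcripts at 0, 9 and 18 h, 1 point per array and a line through the population means (mean of the diet means). Blue tones are the Sonoran populations and red and orange the Baja California ones, with points shifted sideways by population. FBtr0162063 is high in most Punta Prieta arrays at 0 h, in both Baja California populations at 9 h and in none at 18 h. FBtr0166500 is low in Sonora at 9 h and higher at 18 h.

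Opposite calls at different times were few. Of the transcripts called at 9 h, 2 were called in the opposite direction at 0 h and 33 at 18 h. FBtr0175295 was 0.43 ± 0.119 (SE) higher in Baja California at 9 h (limma adjusted p = 0.00625) and its difference at 0 h was -0.42. At 0 h its low arrays were those of Punta Prieta, at 9.09 to 10.24 apart from the 2 doubted arrays at 11.44 and 11.26, and at 9 h Punta Prieta stood at 11.27 to 11.91. FBtr0170222 had a difference of 0.32 ± 0.110 (SE) at 9 h (limma adjusted p = 0.0322) and -0.40 at 0 h. The ranges of both transcripts at 9 h overlapped between regions. With population means as units their adjusted p at 9 h was 0.279 and 0.225. Without Organ Pipe National Monument the 9 h difference of FBtr0175295 was 0.13 (adjusted p = 0.772) and that of FBtr0170222 was 0.148 (adjusted p = 0.657). On organ pipe alone they were 0.213 and 0.21, neither called.

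A further 4 transcripts were called at 9 h with an unadjusted p over 0.5 at both other times. The differences were small: 0.28 ± 0.0748 (SE) for FBtr0169393, 0.23 ± 0.0676 for FBtr0174458, -0.34 ± 0.0746 for FBtr0174909 and -0.30 ± 0.0974 for FBtr0160795. In each of them the arrays of the regions overlapped, FBtr0169393 with 11.29 to 11.87 in Baja California and 10.77 to 11.68 in Sonora. Their difference at 9 h was not called different from that at 0 h, and for FBtr0174909 alone it was called different from that at 18 h (limma adjusted p = 0.0482). With population means as units none of the 4 was called, with adjusted p from 0.143 to 0.298. Without Organ Pipe National Monument the difference of FBtr0174909 was -0.105 and that of FBtr0160795 was -0.188, and without Punta Onah that of FBtr0169393 was 0.165 and that of FBtr0174458 was 0.135, none of them called.

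The regions could also differ in how far an array had moved along the course of desiccation. Each 9 h array was placed along the mean change from 0 to 18 h, as the percent of the way from the 0 h mean to the 18 h mean of its own population and diet. The 15 Baja California arrays stood at 54.2% ± 45.3 (SD) and the 16 Sonoran arrays at 59.3% ± 29.0 (SD), a difference of -5.1 points (permutation test over arrays, two-sided, 100000 resamples, p = 0.722). Group means ran from 4.53% in Punta Prieta on agria, whose 4 arrays spread from -69.8% to 54.9%, to 93.0% in San Quintin on organ pipe and 90.3% in Organ Pipe National Monument on agria. The difference between regions was -36 points on agria and 22.8 points on organ pipe, with adjusted permutation p-values of 0.225 and 0.218 over the 4 array measures. The position uses the 0 h arrays, and without the 2 doubted ones the regional difference was -9.71 points.

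Deviations of arrays from their group means shared an axis, the first component of those deviations, which held 41.8% of that variance over the 95 arrays. An array's score on it rose with the array's standard deviation over transcripts (r = 0.966 over 95 arrays, a description), so it moves with the spread of array values. The scores averaged -1.88 ± 15.8 (SD) in Baja California and -6.72 ± 19.9 (SD) in Sonora, a difference of 4.84 (permutation test, p = 0.469, adjusted p = 0.722 over 4 measures). The extremes were the fourth Punta Prieta agria array at 44.0 and the third Organ Pipe National Monument agria array at -55.0. Without them the difference in score was -1.65, and 1888 transcripts were called between regions at 9 h. With the score as a covariate, 3049 were called.

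**Figure D5:**
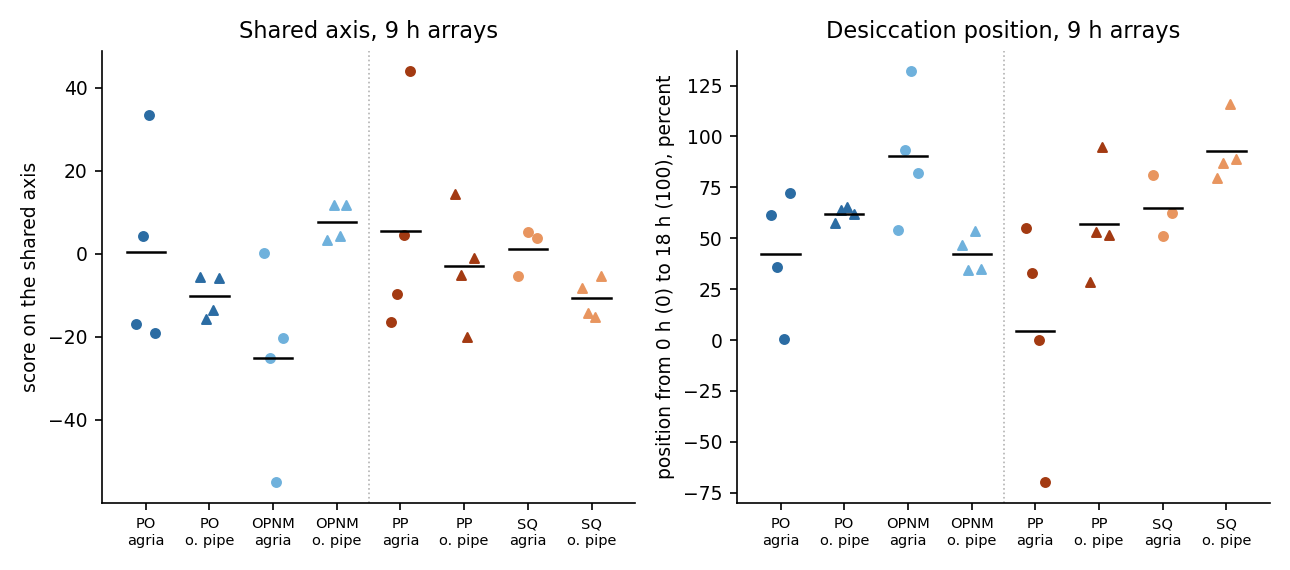
Score on the shared axis (left, arbitrary units) and position between the 0 h and 18 h means (right, percent) of each 9 h array, by population and diet, circles for agria and triangles for organ pipe, with the group mean as a bar. Sonoran groups stand left of the dotted line. The 2 regions overlap in both measures, and the Punta Prieta agria group spreads from -69.8% to 54.9%.

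Region took a modest share of the variation of a typical transcript among the 31 arrays. For the median transcript region held 4.46% of the variance at 9 h, populations within regions 5.02%, diet 1.03%, the interactions with diet 12.4% and the spread between arrays of a group 67.7%. The interactions with diet combine more group differences than region or diet does. A source that combines more takes a larger share by noise alone, so these shares do not rank the sources. Region held over 50% of the variance in 518 transcripts. In a principal component analysis of the 9 h arrays, the first component (40.2% of the variance) overlapped between regions, and the second (16.2%) separated all 15 Baja California arrays from all 16 Sonoran arrays, with 88.6% of its variance between regions. These shares are descriptions of the arrays at hand.

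San Quintin was also set against Punta Prieta at the other times, a comparison of times that was added after the values were seen. The counts of called transcripts were 2624 at 0 h (18.1%), 3 at 9 h and 1594 at 18 h (11%). The change of their difference from 0 to 9 h was called for 178 transcripts (1.23%), 57 more positive (0.392%) and 121 more negative (0.833%), and the share of more positive ones was 49.2% after median centring in place of 32.0%. The count was 879 without the 2 doubted 0 h arrays and 2 without the 5 arrays at 9 h nearest to the other population. Leaving out replicate numbers gave 3 to 208, and single 9 h arrays 55 without the fourth Punta Prieta agria array to 428 without the first. FBtr0162063, with a San Quintin minus Punta Prieta difference of -3.40 at 0 h and -0.61 at 9 h, changed by 2.80 ± 0.488 (SE) with a limma adjusted p of 0.00095, and 0.193 without the 5 arrays.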

How the data were processed

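Total RNA from whole flies was labelled with Cy3 and hybridised to NimbleGen expression arrays. The deposited values are log2 intensities per transcript made by the authors with RMA, per the submitters' processing notes, with no version given. They ran from 4.52 to 15.6 for 14528 transcripts and 95 arrays. The number of arrays limits the precision. A deposited note names 4 arrays made from another order of the design, 1 of them at 9 h.

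The log2 values were fitted without filter or covariate in R 4.3.3 (limma 3.58.1). The model held a mean for each of 24 groups (population, diet and time) and left 71 residual degrees of freedom. Each comparison is a contrast of equally weighted group means, two-sided, adjusted by Benjamini-Hochberg over all transcripts and called at an adjusted p under 0.05. On simulated data the fit was checked for the recovery of planted changes, with no limit set on false calls.

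Transcripts were named by rule: the 2 largest positive and 2 largest negative estimates among the called ones, with all Baja California group means beyond all Sonoran ones for the regional difference, and the same sign on both diets for the other comparisons. A further 2 and 2 came from opposite calls at 0 h, and from transcripts with unadjusted p over 0.5 at the other times. Groups, lists and tests were chosen with earlier results of these data known. The planned gene lists (desiccation and cuticle, heat shock, trehalose and glycogen, female, muscle, gut and clock) could not be joined to the identifiers and gave no result. Alternatives covered scaling, weights, blocks, filters, populations, diets and left-out arrays. Population means as units and the removal of arrays at 9 h by shared axis or by nearest population were chosen after seeing the data.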

Additional observations from a re-analysis of the deposited data

Results flagged for a closer look

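In 5 of 175 groups tested, over named transcripts and array measures, 1 array stood apart from the others of its group by Dixon's 95% criterion, where chance gives about 1 in 20. FBtr0162063 stood at 12.21 in 1 Punta Prieta organ pipe array at 9 h, against 11.54 to 11.65 in the others. FBtr0174264 stood at 10.56 in 1 Punta Onah organ pipe array at 9 h, against 9.78 to 9.81. FBtr0171630 stood at 8.14 in 1 Punta Prieta agria array at 9 h, against 7.58 to 7.68. FBtr0171740 stood at 10.74 in 1 Punta Prieta organ pipe array at 9 h, against 9.04 to 9.28. FBtr0175295 stood at 12.01 in 1 Punta Onah organ pipe array at 9 h, against 11.31 to 11.39.

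Over all transcripts, the regional difference at 9 h was called different from 0 h for 0.234% and from 18 h for 1.83%. Most of the transcripts listed here were named by those same tests or for opposite calls at 0 h. Their share therefore follows from the choice. The regional difference itself differed between times in 10 of 21 named transcripts, by the test of the difference. From 0 to 9 h it changed by 1.62 for FBtr0174986, by 1.02 for FBtr0161522, by 0.85 for FBtr0175295, by 0.73 for FBtr0170222, by -1.02 for FBtr0174264 and by -0.74 for FBtr0165353. The 9 h difference minus the 18 h difference was 3.13 for FBtr0166500, 3.08 for FBtr0162063, 3.05 for FBtr0174986, 1.02 for FBtr0161522, -1.96 for FBtr0171495, -1.03 for FBtr0174264 and -0.36 for FBtr0174909. For FBtr0162063 the San Quintin minus Punta Prieta difference also changed from 0 to 9 h, by 2.80.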

How the results depend on the processing

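No alternative reversed a named transcript: of 1314 values under alternatives, 1213 kept their direction and call and 101 kept the direction and lost the call. Counts are called transcripts in the order region at 9 h, 9 h minus 0 h, 9 h minus 18 h, where they moved by over 1.5 times. Array weights gave 5441, 2093 and 1328, population as a random block 1052, 4 and 150 (within-population correlation 0.0635), a 1.5-fold minimum 258, 15 and 79, and removal of the 5 arrays nearest to the other population 1329, 1 and 135. Organ pipe groups alone gave 826, 0 and 2135. Agria groups alone gave 1157 at 9 h and 123 against 18 h. Against 0 h, quantile normalization gave 57 and the shared axis as a covariate 52. Without Punta Prieta the 3 counts were 1172, 79 and 1552. Without San Quintin they were 82 against 0 h and 105 against 18 h, without Punta Onah 62 and 74, and without Organ Pipe National Monument 1312 at 9 h and 947 against 18 h. Population means as units gave 423 at 9 h, and removal of the 2 arrays at the ends of the shared axis 532 against 18 h. Region by diet gave 2269 with array weights and 9 without Punta Onah.

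San Quintin minus Punta Prieta at 9 h gave 7 with the 9 h arrays alone, with quantile normalization and without the 2 doubted 0 h arrays, 5 with median centring, 12 with the covariate, 1310 with array weights, 6 on agria, 0 on organ pipe (limma) and 1 without the 5 arrays. Its change from 0 h gave 4949 with array weights, 66 with the covariate, 104 on agria, 113 at 1.5-fold, 73 without the arrays of another order, 879 without the 2 doubted arrays, 56 without the axis ends and 2 without the 5 arrays. Organ Pipe National Monument minus Punta Onah gave 1467 (array weights), 612 (covariate), 157 (agria), 226 (organ pipe) and 85 (1.5-fold). Calls in all 4 pairs gave 1104, 531, 112, 83 and 119 in that order, and 141 without the 5 arrays. From 0 to 9 h, Baja California gave 6742 with array weights, 805 on agria, 5211 on organ pipe, 161 at 1.5-fold and 2011 without the 2 doubted arrays, and Sonora 4170 with the covariate, 4135 on organ pipe and 505 at 1.5-fold. The share of the 9 h list called at other times was 64.6% without the 2 doubted arrays and 70.0% without those of another order. The regional differences of array measures, none called, turned on organ pipe alone (standard deviation -0.0167, score -5.64, position 22.8 points) and without the axis ends (-0.00648, -1.65 and 8.58). The causes were not tested.

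Leaving out replicate numbers gave 1417 to 2232 at 9 h, 0 to 33 against 0 h, 92 to 285 against 18 h, 0 for region by diet, 2 to 5 for San Quintin minus Punta Prieta and 3 to 208 for its change, 147 to 351 for the Sonoran pair, 179 to 358 for all 4 pairs, 1380 to 3482 for the Baja California change and 7019 to 8801 for the Sonoran one. Single 9 h arrays gave 1962 to 2392, 25 to 53, 224 to 358, 0, 3 to 7, 55 to 428, 258 to 401, 298 to 369, 2685 to 3713 and 8047 to 9120 in the same order.

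Same-numbered deviations at 9 h correlated at -0.151 to 0.0514 between regions, so no pairing by number across regions was seen. Pairing by number within a population, between diets or across times was not tested this way. With the replicate block the counts were 2162 at 9 h, 28 against 0 h and 264 against 18 h.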
